A study of Homo sapiens with 2 samples.

Results

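MHC class I molecules, their peptide supply and their transactivator NLRC5 were followed in BT549 cells, a human breast cancer line with mesenchymal features. The 9 genes described, HLA-B, HLA-C, HLA-E, B2M, NLRC5, TAP1, TAP2, PSMB8 and PSMB9, were taken by gene name from a table of 19029 genes, and all 9 passed the filter on low values (a mean CPM of at least 1, where CPM is the count scaled to a fixed library total), as did 12934 genes in all. BT549 cells with the genotype SNHG15 overexpression were compared with BT549 cells given as vector control, whose title names the vector pcIp2, and SNHG15 is the long non-coding host gene of a small nucleolar RNA. Both lines were grown in the same medium, total RNA was sequenced, and it is not given whether either line was a single clone or a pool. With 1 library for each genotype, none of the differences can be checked against replicates, and no p-value was computed.

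MHC class I molecules carry peptides of the cell's own proteins to its surface, where CD8+ T cells and natural killer cells read them. Proteasomes cut the peptides, the TAP transporter moves them into the endoplasmic reticulum, and a heavy chain binds them there together with the light chain B2M. NLRC5 acts in the nucleus on a shared promoter module (SXY) of the class I genes, which interferon and NF-kappaB elements flank in the classical heavy chain genes.

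The SNHG15 library held 16570496 counts and the vector library 20799017, over 18086 and 18144 genes with at least 1 count. SNHG15 (chromosome 7, 44983023 to 44986961, minus strand) had 34450 counts in the SNHG15 library against 466 in the vector library. At 1997 against 23.3 CPM, TMM-scaled as are all CPM below, it was 85.6-fold higher (95% interval 78.1 to 94.0) in the library labelled as overexpressing. Intervals are exact for the pair of counts and cover counting error only, since 1 library per genotype gives no spread between libraries. Reads are also not independent molecules, which the intervals do not take into account. Of 5 mesenchymal markers 2 were lower and 0 higher by the 1.5-fold rule given below, and VIM was at 1998 and 1993 CPM. Of 12 leukocyte markers, 6 were among the genes analysed, and their summed level was 9.74 CPM in the SNHG15 library against 19.4 in the vector library, of which CD14 made up 7.71 and 17.4. CD74 had 2 counts and HLA-DRA 5 in the SNHG15 library, and both had 0 in the vector library. PTPRC, CD3E, MS4A1, PECAM1, VWF, CDH5, ESR1 and PGR were not analysed here. Whether other cells than BT549 had a part in the class I differences was not tested.

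The promoters of HLA-B, HLA-C and B2M are shown because the 3 genes encode parts of the same surface molecule and include the lowest (HLA-B) and the highest (B2M) ratio of the 9. The sequences are RefSeq promoter windows (GRCh38.p14), read 5′ to 3′ on the gene's strand and ended where the gene model begins. Capitals mark matches on either strand to CCAAT (the Y box core), TGACG (the X2 core), TTTCNNTTC or its longer form, TTTC and TTTC spaced by NN (interferon-type elements, which can overlap each other) and the NF-kappaB consensus. HLA-B is chr6:31357189-31357429 (minus strand), HLA-C is chr6:31272131-31272342 (minus strand) and B2M is chr15:44711267-44711476 (plus strand).
HLA-B: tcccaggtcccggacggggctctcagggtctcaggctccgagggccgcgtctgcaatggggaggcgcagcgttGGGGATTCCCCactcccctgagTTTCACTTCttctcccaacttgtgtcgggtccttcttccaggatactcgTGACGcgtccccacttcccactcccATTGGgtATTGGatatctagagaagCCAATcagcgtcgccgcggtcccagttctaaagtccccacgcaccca
HLA-C: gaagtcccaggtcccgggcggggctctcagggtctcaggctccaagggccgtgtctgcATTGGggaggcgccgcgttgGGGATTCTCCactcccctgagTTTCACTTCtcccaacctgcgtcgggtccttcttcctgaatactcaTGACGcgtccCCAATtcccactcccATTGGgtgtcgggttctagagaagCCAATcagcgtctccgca
B2M: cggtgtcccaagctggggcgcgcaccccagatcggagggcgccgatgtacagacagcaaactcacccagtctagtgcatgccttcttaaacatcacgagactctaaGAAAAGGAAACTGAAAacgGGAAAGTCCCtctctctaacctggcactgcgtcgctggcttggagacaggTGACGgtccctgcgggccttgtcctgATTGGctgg

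Counted from the start site of the RefSeq window, TGACG lay at -106 to -102 in HLA-B, at -105 to -101 in HLA-C and at -75 to -71 in B2M. CCAAT on the gene's strand lay at -56 to -52 in both HLA-B and HLA-C, and also at -95 to -91 in HLA-C. On the opposite strand it lay at -81 to -77 and -74 to -70 in HLA-B. In HLA-C it was on that strand at -192 to -188 and -80 to -76, and in B2M at -49 to -45. The 250 bases before the RefSeq start, which run past the sequences shown, were identical in HLA-B and HLA-C in 226 of 254 aligned columns (89.0%). All 3 promoters held an interferon-type and an NF-kappaB match. Among 35116 promoter windows of 300 bases, CCAAT was found in 34.6%, TGACG in 24.6%, TTTCNNTTC in 7.66%, its longer form in 3.57% and the NF-kappaB consensus in 5.91%. A match describes the letters only.

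The antigen-processing genes lie in a compact cluster on chromosome 6, and short windows from their promoters are shown for interferon-type and NF-kappaB matches. HLA-B and HLA-C held only the shorter interferon-type form, and TAP1 only the longer form. The TAP2 window is chr6:32838781-32838810, the PSMB8 window chr6:32844030-32844059 (at the second of its start sites), and the TAP1 windows chr6:32853816-32853845 and chr6:32853757-32853786, all on the minus strand of GRCh38.p14, with the element in capitals.
TAP2, interferon-type: tggctgggGAAGCGAAAGCGAAAgctgccc
PSMB8, interferon-type: tctgtggcTTTCGCTTTCACTTCctcctcc
TAP1, interferon-type: cggccgcTTTCGATTTCGCTTTCccctaaa
TAP1, NF-kappaB: gcctgttcctGGGACTTTCCgagagccccg

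PSMB9 had a CCAAT and a TGACG match in its window and no match to the interferon-type letters or the NF-kappaB consensus. The PSMB8 matches shown lay at -4 to 6 and at 3 to 11 from its second start site. The window of its first start site held no interferon-type match. HLA-E and NLRC5 had no entry in the promoter table. RefSeq entries were matched for 7 of the 9 genes.

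The comparison asked how the class I genes differed between SNHG15-overexpressing and vector control cells. HLA-B, HLA-C, NLRC5, TAP1 and PSMB9 were lower in the SNHG15 library by at least 1.5-fold with an interval that excluded 1, HLA-E, TAP2, PSMB8 and B2M differed by less, and 0 of the 9 were higher. Over all genes compared, 12.2% were lower by this rule and 13.3% higher (1574 and 1725 genes, or 1151 and 2380 when scaled by library totals). The median log2 ratio of the 9 genes was -0.61, against 0.02 over all genes, and their summed level was 995 CPM in the SNHG15 library against 1419 in the vector library. All 9 intervals lay below 1, as did those of 31.3% of all genes, but the ratio of B2M turned to 1.02 when scaled by library totals. HLA-B was the only member whose whole interval lay beyond 2-fold, which 2.45% of all genes were on the lower side and 2.2% on the higher. In bulk RNA, fewer cells expressing a gene and less RNA per cell cannot be told apart.

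**Figure D1:**
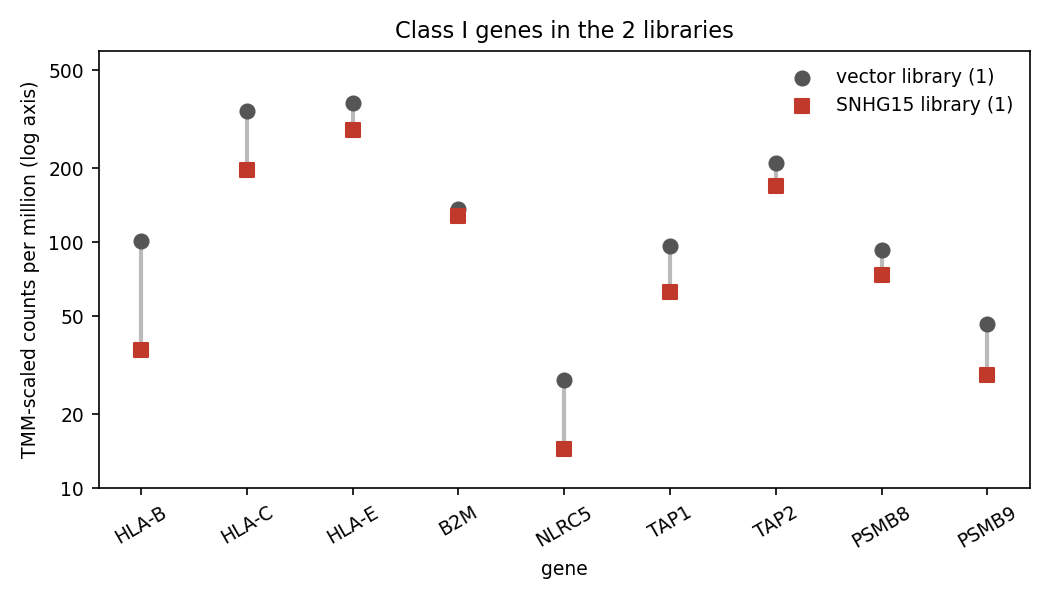
Level of each class I gene in TMM-scaled CPM on a log axis, with 1 point per library (circles, vector control; squares, SNHG15 overexpression) and no replicate error. HLA-B, at 101 and 36.4 CPM, has the widest gap, and the B2M symbols, at 137 and 128 CPM, nearly touch.

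**Figure D2:**
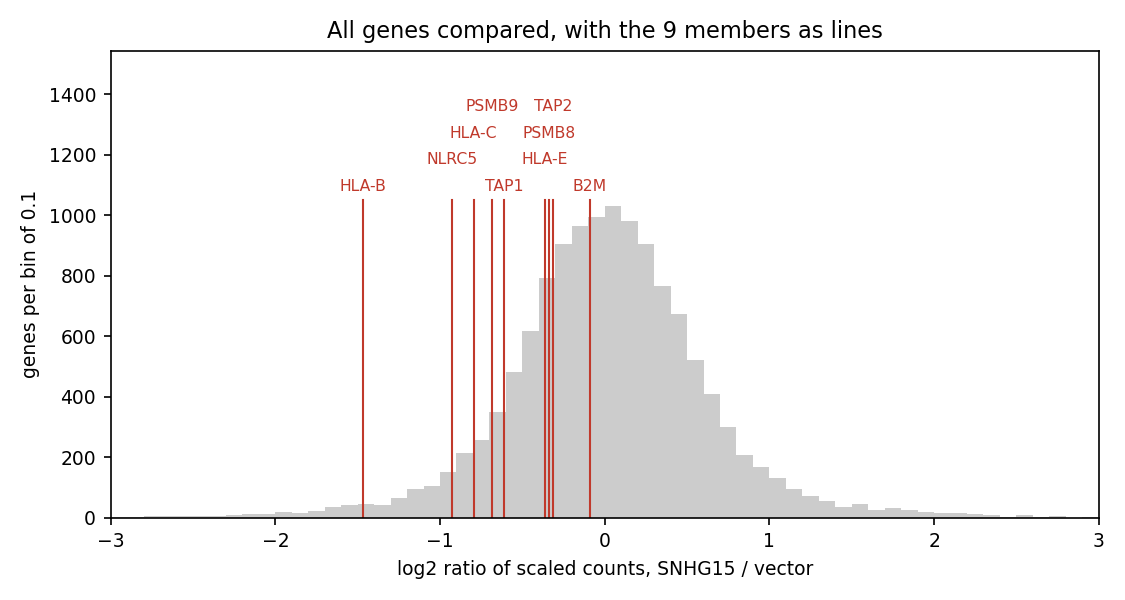
Histogram of the log2 ratio of scaled counts (SNHG15 over vector) of all genes compared, in genes per bin of 0.1, with the 9 class I genes as vertical lines. HLA-B lies at -1.47, NLRC5 at -0.93 and B2M at -0.09, against an all-gene median of 0.02. The few genes past 3 on either side are outside the plot.

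Among the heavy chains, HLA-B (chromosome 6, 31353872 to 31357188, minus strand), which presents peptides to CD8+ T cells, had 628 counts in the SNHG15 library against 2017 in the vector library. Its level of 36.4 against 101 CPM was 2.77-fold lower (2.54 to 3.04), and 2.03% of all genes had a ratio at or below its own. HLA-C (31268749 to 31272130, minus strand), a classical heavy chain that is also a ligand of killer immunoglobulin-like receptors, had 3385 and 6806 counts. At 196 against 341 CPM it was 1.74-fold lower (1.67 to 1.81).

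HLA-E (30489467 to 30494205, plus strand), a non-classical heavy chain that shows leader peptides of other class I chains to NKG2A receptors, was the most abundant of the 9 by CPM in both libraries. It had 4919 counts in the SNHG15 library against 7333 in the vector library, 285 and 367 CPM, and was 1.29-fold lower (1.24 to 1.34). The 3 heavy chains thus differed in size of change as well as in level. Their pooled counts, 8932 and 16156, were 1.56-fold lower in the SNHG15 library, at a ratio of 0.640 (0.624 to 0.657).

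The ratio of 1 gene's counts to another's within a library does not depend on the scaling, though it can move with the GC trend described further on, and 13 such pairs were compared between libraries after the values had been seen. Removing that trend changed whether the interval included 1 for TAP1 over TAP2, TAP1 over PSMB9 and PSMB10 over PSMB7, as given with each. HLA-B stood at 0.186 counts per HLA-C count in the SNHG15 library against 0.296 in the vector library, a ratio of ratios of 0.626 (0.566 to 0.691). HLA-E rose against HLA-C, from 1.08 to 1.45 counts per HLA-C count (ratio 1.35, interval 1.28 to 1.43). Per HLA-E count, HLA-B was at 0.128 in the SNHG15 library and 0.275 with vector, a ratio of ratios of 0.464 (0.421 to 0.512). The heavy chains therefore fell by different amounts in these libraries, HLA-B more than HLA-C and HLA-C more than HLA-E.

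**Figure D3:**
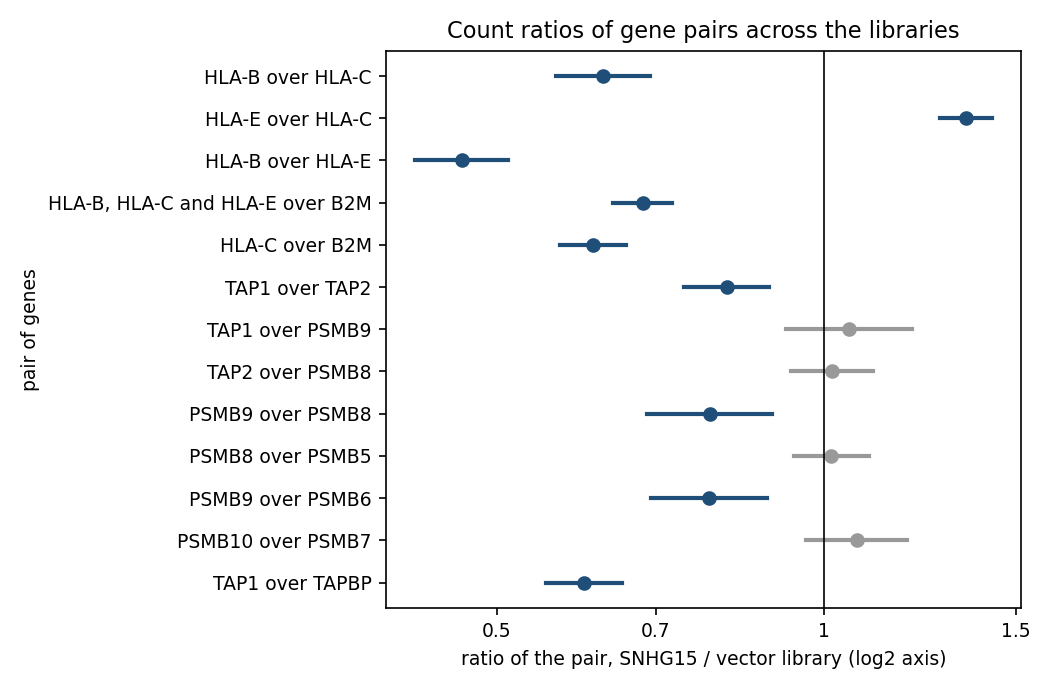
Ratio of the counts of a pair of genes in the SNHG15 library divided by the same ratio in the vector library (log2 axis), with bars for the 95% counting interval. Grey points have an interval that includes 1. HLA-B over HLA-E is lowest at 0.464, HLA-E over HLA-C highest at 1.35, and TAP1 over PSMB9 and TAP2 over PSMB8 lie near 1 as counted, with no GC trend removed.

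Reads of HLA genes can fit several of them, and how they were divided is uncertain. The principal transcripts of HLA-B and HLA-C in GENCODE were identical in 1426 of 1556 aligned columns (91.6%), against 51.7% for HLA-B and HLA-E. Their longest exact run in coding sequence is shown as the kind of stretch in which a read cannot be assigned to either gene, and it spans coding positions 420 to 485 in both.
HLA-B and HLA-C, shared run: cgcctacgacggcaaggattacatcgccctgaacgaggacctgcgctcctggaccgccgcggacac

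The run is 66 bases long. Of windows of 50 bases in the principal transcripts, 2.54% of HLA-B, 6.79% of HLA-C and 5.13% of HLA-E also occurred in another gene, and of windows of 100 bases 0%, 0.278% and 0.600%. Read length and the HLA alleles of BT549, which may differ from the reference, are not given in the sources used here. Pooling HLA-B, HLA-C and HLA-E, as above, gives a ratio that does not depend on how reads were divided among these 3 genes.

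The light chain B2M (chromosome 15, 44711477 to 44718877, plus strand), which every class I heavy chain needs to reach the surface, had 2215 counts in the SNHG15 library against 2728 in the vector library. At 128 and 137 CPM it was 1.06-fold lower (1.01 to 1.13) with TMM scaling, and at a ratio of 1.02 with library totals. The heavy chains fell relative to it. HLA-B, HLA-C and HLA-E together held 4.03 counts per B2M count in the SNHG15 library against 5.92 in the vector library, a ratio of ratios of 0.681 (0.640 to 0.725). With the GC trend removed the ratio of ratios was 0.876 (0.823 to 0.933), a smaller fall. GC content was 40.6% in B2M, 54.8% in HLA-E, 59.0% in HLA-B and 62.7% in HLA-C.

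NLRC5 (chromosome 16, 56989485 to 57083531, plus strand), the transactivator of class I genes, had 250 counts in the SNHG15 library against 552 in the vector library. Its level of 14.5 against 27.6 CPM was 1.91-fold lower (1.64 to 2.22), the second-lowest ratio of the 9 after HLA-B. It had the fewest counts of them, and its interval was the widest relative to its ratio. Of 8 other factors of the promoter module compared, 0 were lower and 3 higher, with a median log2 ratio of 0.55. Over all genes 12.2% were lower and 13.3% higher. The counts moved with the processing, to 1 lower and 2 higher with DESeq2 size factors, 0 and 5 with library totals and 0 and 1 with the GC trend removed. NFYA, a subunit of the CCAAT-binding factor NF-Y, was higher (ratio 1.63, interval 1.40 to 1.91), and so was ATF1, a CREB-family factor, from 61 counts in the vector library to 87 (ratio 1.65, interval 1.18 to 2.33). Of the RFX complex, which binds the X box, RFX5 was at a ratio of 1.46 (1.35 to 1.59) and RFXANK at 0.685 (0.646 to 0.726), neither past 1.5-fold.

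TAP1 and TAP2 form the peptide transporter of the endoplasmic reticulum. TAP1 (chromosome 6, 32845209 to 32853978, minus strand) had 1086 counts in the SNHG15 library against 1924 in the vector library, 62.9 and 96.3 CPM, and was 1.53-fold lower (1.42 to 1.65). TAP2 (32821833 to 32838780, minus strand) had 2917 and 4202 counts, 169 and 210.4 CPM, and was 1.24-fold lower (1.19 to 1.30). Within a library, TAP1 stood at 0.372 counts per TAP2 count in the SNHG15 library against 0.458 in the vector library (ratio of ratios 0.813, interval 0.744 to 0.889). With the GC trend removed (GC content 57.5% in TAP1, 49.1% in TAP2) the interval included 1 (0.943, interval 0.863 to 1.03). TAP2 shares 2064 exonic bases (32.3% of its exons) with AL669918.1, a gene model on the same strand, and 79.8% of the 100-base windows of its principal transcript. AL669918.1 had 163 counts in the SNHG15 library against 94 in the vector library, and pooled with it TAP2 was 1.20-fold lower (1.15 to 1.26).

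PSMB8 and PSMB9 are catalytic subunits that replace PSMB5 and PSMB6 in the immunoproteasome. PSMB8 (32840717 to 32844703, minus strand) had 1271 and 1861 counts, 73.7 CPM in the SNHG15 library against 93.2 in the vector library, and was 1.26-fold lower (1.18 to 1.36). PSMB9 (32844136 to 32859585, plus strand) had 498 and 929 counts, 28.9 and 46.5 CPM, and was 1.61-fold lower (1.44 to 1.80). PSMB9 thus fell more than PSMB8, with a ratio of ratios of 0.785 (0.687 to 0.896).

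Set against the constitutive subunit each replaces, the pair again differed. PSMB8 stood at 0.218 counts per PSMB5 count in the SNHG15 library against 0.215 in the vector library (ratio of ratios 1.01, interval 0.937 to 1.10). PSMB9 stood at 0.209 and 0.267 per PSMB6 count (0.783, interval 0.693 to 0.885). PSMB10, the remaining immunoproteasome catalytic subunit and not among the 9, was at a ratio of 0.907 (0.819 to 1.004) and at 0.0962 and 0.0899 per PSMB7 count (1.07, interval 0.962 to 1.19), which became 1.28 (1.15 to 1.42) with the GC trend removed. PSMB9 was the only one of these 3 that was lower against its constitutive counterpart with an interval excluding 1, both as counted and with the GC trend removed (0.688, interval 0.608 to 0.777).

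TAP1 and PSMB9 start next to each other on opposite strands, and the ratio of their counts did not differ beyond counting error (2.18 TAP1 counts per PSMB9 count in the SNHG15 library, 2.07 in the vector library, interval of the ratio of ratios 0.921 to 1.20). With the GC trend removed the ratio of ratios was 1.26 (1.10 to 1.44), so TAP1 then fell less than PSMB9. For TAP2 and PSMB8 the interval included 1 both as counted (2.30 and 2.26 TAP2 counts per PSMB8 count, interval 0.932 to 1.11) and with the trend removed (0.858 to 1.02). Exons of PSMB8 and PSMB9 overlap by 139 bases on opposite strands, and exons of PSMB8-AS1 overlap those of TAP1 by 456 bases, of PSMB8 by 618 and of PSMB9 by 174. Whether the libraries kept strand is not given, so reads there may be divided among these genes. PSMB8-AS1 itself had 30 and 34 counts.

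Levels were compared between genes as CPM per kilobase of the GENCODE principal transcript, with exact Poisson 95% intervals of the counts. In the vector library the order was HLA-C at 222 and HLA-E at 141, then TAP2 at 84.2 (81.7 to 86.8), PSMB8 at 82.9 (79.2 to 86.7) and B2M at 80.1 (77.1 to 83.2), whose intervals overlap. HLA-B at 65.3 (62.5 to 68.2) and PSMB9 at 59.5 (55.7 to 63.4) followed, also with overlapping intervals, then TAP1 at 32.6 and NLRC5 at 4.05. In the SNHG15 library HLA-C at 128 and HLA-E at 109.6 again came first. B2M at 75.3 (72.2 to 78.5) stood above TAP2 at 67.7 (65.3 to 70.2) and PSMB8 at 65.5 (62.0 to 69.2), and PSMB9 at 36.9 (33.7 to 40.3) above HLA-B at 23.5 (21.7 to 25.4), TAP1 at 21.3 (20.02 to 22.6) and NLRC5 at 2.12. Several places between HLA-E and NLRC5 depend on the length used, among them those of B2M, HLA-B, TAP1 and PSMB9. Per kilobase of merged exons HLA-B lay above PSMB9 in both libraries, at 33.5 against 15.1 with vector and 12.1 against 9.40 with SNHG15. TAP1 also lay above PSMB9 in both, at 20.05 with vector and 13.1 with SNHG15. HLA-B then stood above TAP2 (32.9) and PSMB8 (31.1) in the vector library, and below TAP1 in the SNHG15 library. B2M was then at 22.5 in the vector library and 21.1 in the SNHG15 library, with HLA-C at 136 and 78.3 and HLA-E at 123 and 95.8.

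GC content moved with the ratios across all genes, with a Spearman rho of -0.32 across 12895 genes, which are not independent replicates. GC content ranged from 40.6% in B2M to 62.7% in HLA-C, and the all-gene median was 49.2%. With the GC trend removed, HLA-B was 2.34-fold lower, PSMB9 1.67-fold and NLRC5 1.63-fold, and these 3 stayed past 1.5-fold, when 9.39% of all genes were lower. HLA-C was then 1.39-fold lower, TAP1 1.32-fold, TAP2 1.25-fold and HLA-E, PSMB8 and B2M each 1.17-fold, and all 9 intervals lay below 1. Scaled by library totals, which moves the all-gene median to 0.13, HLA-B, HLA-C and NLRC5 were past 1.5-fold and TAP1 and PSMB9 were not, with 8.9% of all genes lower. What the GC trend arises from was not tested.

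In the authors' deposited table, HLA-B was the only one of the 9 genes called, as down, at a log2 FPKM ratio of -1.36. The log2 FPKM ratios in the authors' deposited table were -0.81 for NLRC5, -0.68 for HLA-C, -0.57 for PSMB9 and -0.50 for TAP1. For HLA-E, PSMB8, TAP2 and B2M, the authors' deposited table gave -0.25, -0.22, -0.20 and 0.03. B2M was thus the only one of the 9 with a positive value there.

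The rest of the class I pathway was described from 8 lists (other heavy chains, peptide loading, other proteasome genes, their constitutive counterparts, peptidases, promoter module, interferon signalling and NF-kappaB). Of their 54 genes compared, 2 were lower and 9 higher, where 12.2% of all genes were lower and 13.3% higher. With DESeq2 size factors 5 were lower and 5 higher, beside 1750 lower (13.5%) and 1521 higher over all genes. In the list of peptide loading and trimming genes, 0 of 6 were lower and 1 higher, with a median log2 ratio of 0.22. CANX, the chaperone calnexin that receives new heavy chains, was at 330.5 CPM in the SNHG15 library against 164 in the vector library (ratio 2.01, interval 1.93 to 2.10). CALR, the chaperone calreticulin, was at 0.996 (0.984 to 1.01), and PDIA3, its disulfide isomerase partner, at 1.25 (1.20 to 1.29). TAPBP, or tapasin, which bridges TAP and the heavy chain, was at 509.8 and 469 CPM (ratio 1.09, interval 1.06 to 1.12). Per TAPBP count, TAP1 was at 0.123 in the SNHG15 library against 0.205 in the vector library (ratio of ratios 0.601, interval 0.554 to 0.652). The transporter subunit and the bridge it binds therefore differed in direction.

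Of the other immunoproteasome genes and proteasome activators, 0 of 6 passed 1.5-fold in either direction (median 0.26), and 1 was higher with library totals. The activator subunits PSME1 and PSME2 were at 1.32 (1.25 to 1.40) and 1.42 (1.34 to 1.52), and the proteasome assembly chaperone POMP at 1.17 (1.09 to 1.26), while PSME3 was at 0.724 (0.673 to 0.780). The constitutive PSMB5, PSMB6 and PSMB7 were at 0.779, 0.792 and 0.847, with 0 of 3 past 1.5-fold (median -0.34). Of 8 peptidases that trim or destroy class I peptides or precursors, 0 were lower and 2 higher, NRDC (1.52, interval 1.39 to 1.66) and LNPEP (1.54, interval 1.21 to 1.95), and the median was -0.05. The shares of all genes were 12.2% lower and 13.3% higher. With DESeq2 size factors 1 peptidase was lower and 0 higher, and with the GC trend removed 0 passed in either direction. Of the class I-like heavy chains, FCGRT, the neonatal Fc receptor, was at 0.672 (0.610 to 0.740), HFE, which binds the transferrin receptor, at 0.713 (0.573 to 0.886) and MR1, which presents vitamin B metabolites, at 1.22 (1.04 to 1.44), none of them past 1.5-fold. HLA-F and HLA-G were not analysed here.

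**Figure D4:**
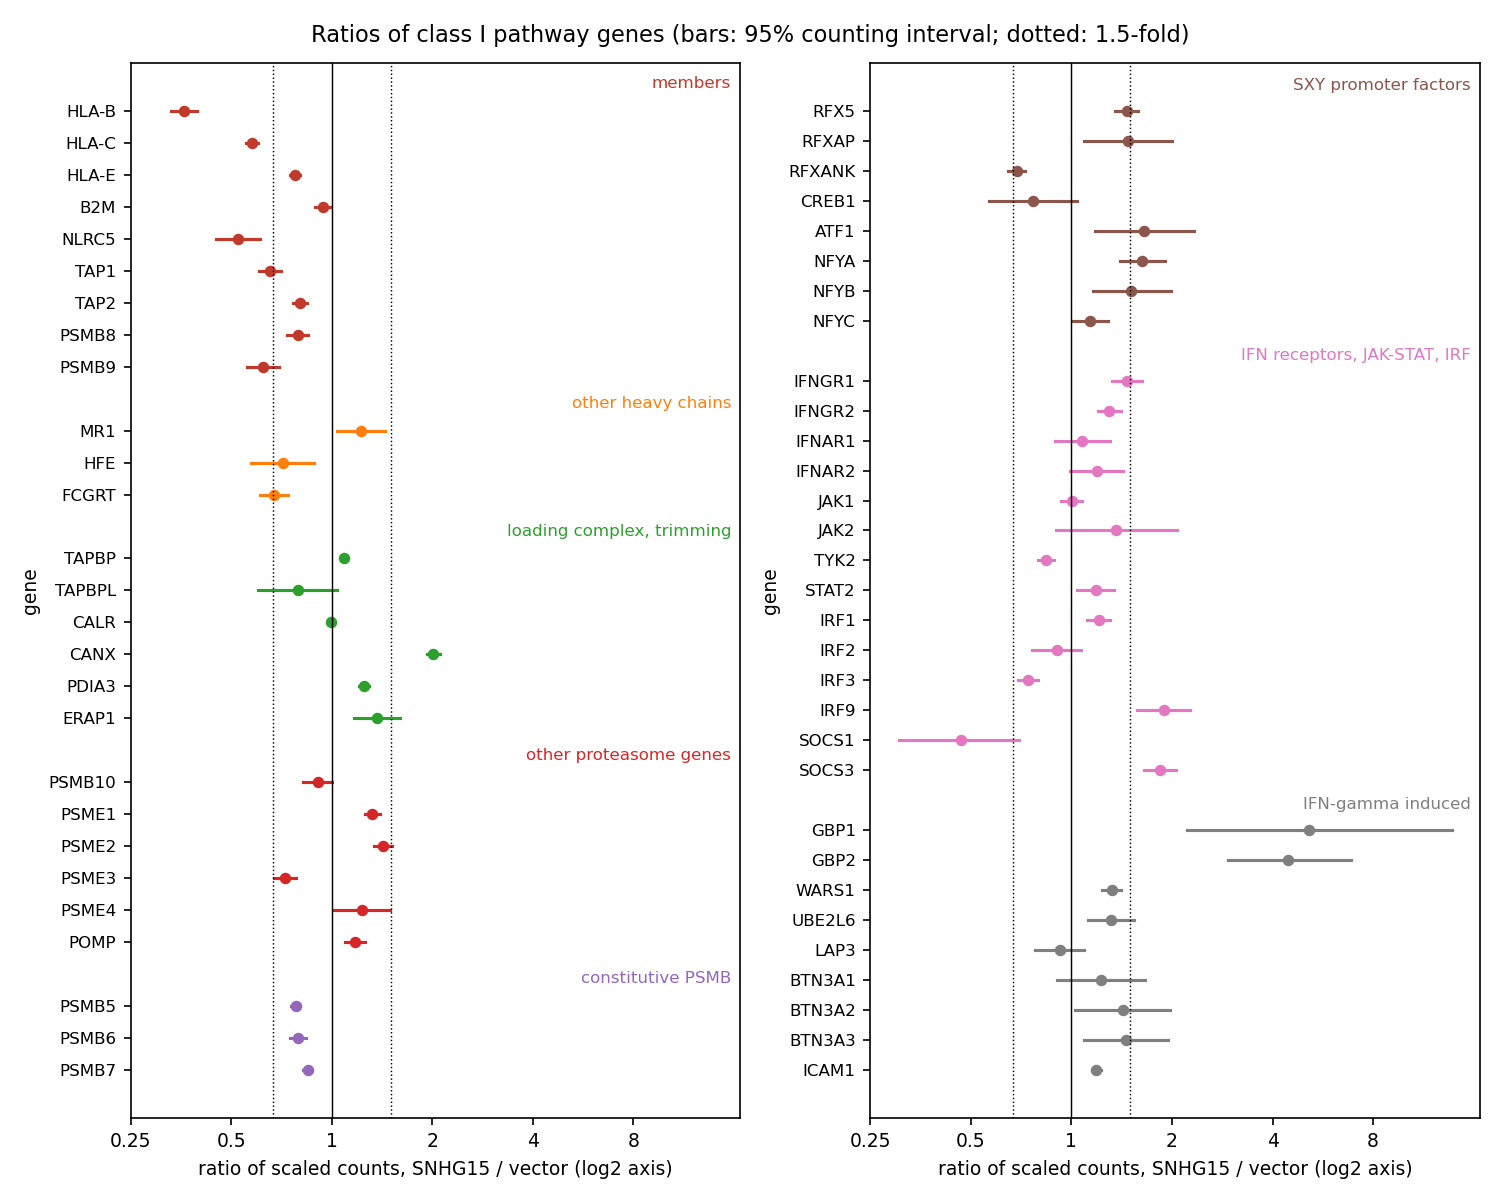
Ratio of scaled counts (SNHG15 over vector, log2 axis) of the 9 class I genes and of other genes of the pathway, with bars for the 95% counting interval, a solid line at 1 and dotted lines at 1.5-fold. All 9 class I genes lie left of 1, from HLA-B at 0.360 to B2M at 0.940, while CANX (2.01), GBP1 (5.13) and GBP2 (4.44) lie furthest right.

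Interferon gamma is a main inducer of the class I genes and of NLRC5, and other genes of that response were described beside them. Of 9 interferon gamma-induced genes compared, a list outside those 8, 0 were lower and 2 higher, with a median log2 ratio of 0.40. Over all genes 12.2% were lower and 13.3% higher. With the GC trend removed 3 of the 9 were higher, and with library totals 4. GBP2 and GBP1, interferon-induced GTPases, rose from 30 to 115 and from 7 to 31 counts (ratios 4.44, interval 2.95 to 6.87, and 5.13, interval 2.21 to 13.8), both at low levels. WARS1, a tryptophanyl-tRNA synthetase, was at 1.32 (1.24 to 1.41), and ICAM1, an adhesion molecule, at 1.19 (1.15 to 1.23).

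Of 15 interferon receptor, JAK-STAT and IRF genes, 1 was lower and 3 higher (median 0.25), beside 12.2% and 13.3% of all genes. Under the other scalings and the GC correction 2 to 4 were higher. IRF9, a subunit of the interferon-activated factor ISGF3, was at 1.89 (1.57 to 2.27), and SOCS3, a feedback inhibitor of cytokine receptors, at 1.84 (1.65 to 2.05). SOCS1, an inhibitor of JAK kinases, had 35 counts in the SNHG15 library against 87 in the vector library (0.466, interval 0.305 to 0.697). IRF1, a transcription factor of the interferon response named after its value was seen, was at 1.21. Among NF-kappaB subunits 0 of 4 passed 1.5-fold (median 0.11; 1 was higher with the GC trend removed), with RELA at 0.770 (0.729 to 0.812) and NFKB2 at 1.33 (1.25 to 1.40).

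Of 12 genes of the repressor PRC2 and of class I turnover, 0 were lower and 2 higher (median 0.06), beside 12.2% and 13.3% of all genes. SUSD6 was at 1.73 (1.49 to 2.02) and TMEM127 at 0.863 (0.808 to 0.923), which act together in removing class I molecules from the surface. Of 3 NKG2D ligands compared, stress ligands that resemble class I chains, 0 passed 1.5-fold (median -0.43), with MICA at 0.702 (0.667 to 0.740), MICB at 1.26 (1.14 to 1.39) and ULBP2 at 0.737. Class II genes were near the detection limit, with a summed level of 4.64 CPM in the SNHG15 library against 3.15 in the vector library, and CIITA, the class II transactivator related to NLRC5, had 19 and 28 counts.

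The 7 class I genes on chromosome 6 span 30489467 to 32859585 (hg38), an interval of 2.37 Mb in which 66 other genes were compared. Of these 66, 9 were lower (13.6%), 5 were higher and the median log2 ratio was -0.16, against 12.2% lower and 13.3% higher over all genes and 9.05% lower among the 630 genes of chromosome 6. The median of these neighbours was -0.20 with DESeq2 size factors, -0.04 with library totals and -0.01 with the GC trend removed. The all-gene medians were then -0.03, 0.13 and 0.05. In the same order 11, 7 and 7 neighbours were lower, as were 13.5%, 8.9% and 9.39% of all genes. Among the protein-coding neighbours of at least 5 CPM, PRRT1 (ratio 0.397, interval 0.319 to 0.492), NRM (0.457, interval 0.419 to 0.497) and AL662899.2 (0.234, interval 0.207 to 0.265) were lowest. HLA-B, at 0.360 (0.329 to 0.394), lay between AL662899.2 and NRM, and its interval overlapped that of PRRT1. Highest were AL669918.1 (2.01, interval 1.55 to 2.62), PPP1R18 (1.56, interval 1.45 to 1.69) and the readthrough model ATP6V1G2-DDX39B, with 641 counts in the SNHG15 library against 0 in the vector library.

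**Figure D5:**
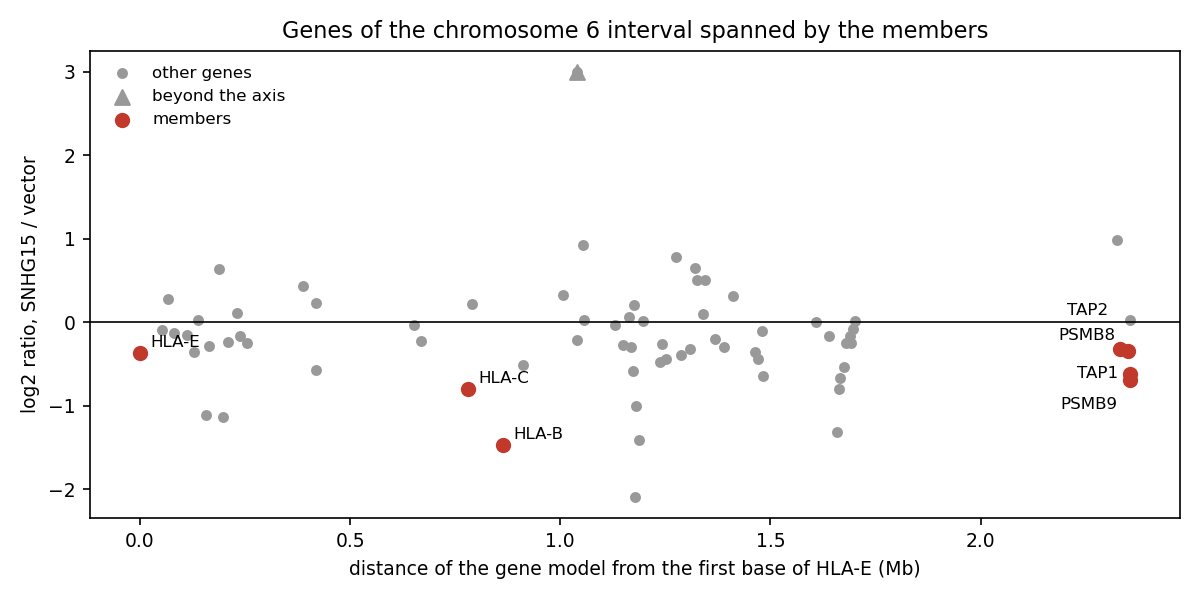
Log2 ratio of scaled counts (SNHG15 over vector) of the genes compared in the chromosome 6 interval against distance from the first base of HLA-E in Mb, with the 7 class I genes named and a triangle for ATP6V1G2-DDX39B, which is past the axis. HLA-B (-1.47) and HLA-C (-0.80) lie below most of their neighbours, and TAP2, PSMB8, TAP1 and PSMB9 form a group at the right between -0.32 and -0.69.

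Genes of similar level whose ratio was nearest to that of HLA-B were ANK1, an ankyrin of the membrane skeleton (2.77-fold lower), SAMD11 (2.76-fold) and PARVB, an integrin-linked adaptor (2.73-fold), and 4 of 1751 candidates lay within 0.1 log2 of it. For NLRC5 they were WTIP, ARSI and EPS8L2, each 1.91-fold lower, with 48 of 2038 candidates within 0.1. Likeness here is a single ratio between 2 libraries.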

How the data were processed

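Total RNA of BT549 cells was sequenced, with 1 library per genotype. The authors deposited raw counts, whole numbers for each gene, and all ratios here come from these counts. The authors deposited FPKM values and a log2 FPKM ratio beside the counts, with p-values and adjusted p-values from edgeR per the name of the table. With 1 library per group those p-values rest on an assumed spread and are not used here. Reads were placed on hg38 according to the submitters' processing notes, and the aligner, counter, annotation release, strandedness and read length are not given in the sources used here.

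TMM factors (1.04 for the SNHG15 library, 0.960 for the vector library) came from edgeR 4.0.16 in R 4.3.3. The comparison kept genes whose CPM averaged at least 1. Ratios carry exact conditional-binomial (Clopper-Pearson) 95% intervals, and log2 ratios a prior count of 2. In the vector library 3 counts, taken as the floor, come to 0.150 CPM, and in the SNHG15 library to 0.174 CPM. The median gene had 284 counts with SNHG15 and 315 with vector. Lower or higher means an interval that excludes 1 and a ratio of at least 1.5-fold. Transcripts, GC content and overlaps came from GENCODE 29 (GRCh38), which matched 18903 identifiers. By locus, CANX, IRF9, MICA, PSMB10, ZEB1, ANK1, PARVB, EPS8L2 and AL662899.2 overlap a gene of the same strand, and NFYA, NRDC, LNPEP, RFX5, RFXANK, SOCS1, PSME1, PSME2, PSME3, PDIA3, WARS1, ICAM1, HFE, CIITA, VIM, PRRT1 and SAMD11 a gene of the opposite strand, so reads may be divided there. Motifs were searched on both strands of RefSeq promoter windows of 250 bases before to 50 after the start.

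The 9 genes, the 16 gene lists and the naming rule were chosen with earlier results of these data known, and the motifs and gene pairs after the values were seen. The rule named the 9 genes and SNHG15, up to 4 genes of each list (those furthest past 1.5-fold, then the most abundant), the 3 lowest and 3 highest neighbours on chromosome 6, and the 3 genes nearest in ratio to HLA-B and to NLRC5. PSMB10, IRF1, AXL, CD74 and HLA-DRA fall outside this rule and were picked with their values in view. Some genes that the rule names are left out of the text. Functions were tested on simulated data. Alternatives tried were library totals, DESeq2 1.42.0 size factors, other filters, thinning, GC or length trend removal (lowess, span 0.5), point ratios, FPKM with pseudocounts and centring on the chromosome 6 interval. Pooling TAP2 with AL669918.1 and removing the GC trend from gene pairs were added after seeing the data.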

Additional observations from a re-analysis of the deposited data

How the results depend on the processing

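With 1 library per group, neither leaving out a replicate nor an estimate of biological spread was possible. No paired analysis was possible because each group held 1 library. The number of class I genes lower by at least 1.5-fold (5) fell to 3 with library totals and to 3 with the GC trend removed, and HLA-B stayed beyond 2-fold under each of the 7 scalings, filters and trend corrections tried. The ratio of B2M reversed to 1.02 with library totals, 1.02 with deposited FPKM at a pseudocount of 1, 1.02 at 0.1 and 1.10 when centred on the chromosome 6 interval. The median log2 ratio of the 9 genes (-0.61) was -0.50 with library totals, -0.40 with the GC trend removed, -0.37 and -0.49 with FPKM at pseudocounts of 1 and 0.1, and -0.48 without the HLA heavy chains. The pooled ratio of HLA-B, HLA-C and HLA-E (0.640) was 0.622 with DESeq2 size factors, 0.694 with library totals, 0.746 with the GC trend removed and 0.667 with the length trend removed.

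Of the other pathway genes, 5 were lower and 5 higher with DESeq2 size factors (2 and 9 with TMM), 1 was lower at a minimum of 5 CPM, and 5 were higher with the GC trend removed. Of the other genes of the chromosome 6 interval, 5 of which were higher, 8 were higher with library totals, 10 with no filter, 3 at 5 CPM and 9 with the GC trend removed. Over all genes at 5 CPM, 1023 were higher by 1.5-fold and 162 beyond 2-fold (1725 and 285 at 1 CPM), and by point ratios 631 were lower and 703 higher beyond 2-fold. Over all genes 1750 were lower and 1521 higher with DESeq2 size factors, and 1214 and 1713 with the GC trend removed. Library totals moved the share of higher among all calls from 52.3% to 67.4%. The causes of these shifts were not tested beyond what each alternative changes.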

Other observations

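The gene lengths implied by the deposited FPKM values were a median of 1.56 times the merged exonic length of GENCODE over 10927 genes. Levels of the class I genes were therefore compared per length of the principal transcript and not by the deposited FPKM.

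Of the 5 mesenchymal markers of BT549, 2 were lower and 0 higher, where 12.2% of all genes were lower. FN1 (fibronectin) was at a ratio of 0.555 (0.542 to 0.568) and ZEB1, a transcription factor of the mesenchymal state, at 0.590 (0.418 to 0.823). VIM was at 1.002 (0.988 to 1.02), AXL, a receptor tyrosine kinase, at 1.09 (1.04 to 1.13) and CD44, a hyaluronan receptor, at 1.17 (1.13 to 1.20).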
